A study of Canis lupus familiaris with 18 samples.

Results

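The HOX cluster genes were represented on the canine array by 30 probe sets, groups of short probes against a transcript, of 42924 that are not array controls. A probe set was a member if the platform annotation gave it a single symbol made of HOXA, HOXB, HOXC or HOXD and a number from 1 to 13. The 30 probe sets cover 21 genes of 15115 with a symbol on the array, and 21 of the 38 HOX genes in the RefSeq gene table for the dog assembly UU_Cfam_GSD_1.0; HOXA10, HOXC6, HOXC9 and HOXD8 are among the 17 others, which were not analysed here. The fat came from 9 intact female beagles aged 4 years, all given the same commercial diet, and after an overnight fast each dog gave a sample of both depots. Feeding was assigned at random. The groups were gonadal fat of ad libitum dogs (n = 5), gonadal fat of control dogs (n = 4), subcutaneous fat of the same ad libitum dogs (n = 5) and subcutaneous fat of the same control dogs (n = 4). Ad libitum dogs ate freely for 24 weeks and are labelled obese, and control dogs, labelled lean, received an amount that kept body weight at baseline.

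HOX genes encode homeodomain transcription factors that lie in 4 clusters, A to D, in the mammalian genome. In the embryo, the order of the genes along a cluster follows the order of the body regions that use them, from head to tail, and adult cells keep much of that pattern. In human and mouse fat, HOX genes are among the genes known to differ in expression between depots. HOX proteins bind DNA together with partner proteins of the TALE group, such as PBX and MEIS. Polycomb proteins hold silent clusters silent, trithorax proteins help to keep active ones active, and retinoic acid switches HOX genes on in the embryo.

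Values are deposited log2 signals computed by GCRMA, and a log2 value of 4 served as a floor below which a signal was treated as not measured. The 8 adipocyte markers all lay above the floor in all 18 arrays, with array medians of 11.3 to 13.2 in gonadal fat and 11.0 to 13.2 in subcutaneous fat. Of the 18 arrays, 4 carried transcripts of another tissue: gonadal fat of ad libitum dog 2 and subcutaneous fat of control dogs 3 and 4 held skeletal muscle transcripts, and gonadal fat of ad libitum dog 6 and subcutaneous fat of control dog 4 held those of ciliated epithelium, with a median marker level more than 2 above the depot median on the log2 scale; subcutaneous fat of ad libitum dog 7 had muscle markers 1.14 above. By the same measure, smooth muscle markers lay 4.07 above in gonadal fat of control dog 3, an array not counted among the 4. Mesothelial markers lay 3.50 above in subcutaneous fat of control dog 4, and skin and hair markers 1.84 above in that of ad libitum dog 7. The labels tie the subcutaneous arrays, but not the gonadal ones, to an earlier submission, so depot and array batch cannot be told apart. The number of arrays limits the precision of every comparison.

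Most HOX genes with signal were of the A and B clusters, which also hold most of the HOX genes measured by the array. The 21 genes comprise 7 of the A cluster, 8 of the B cluster, 5 of the C cluster and 1 of the D cluster. The D cluster as a whole can therefore not be judged. Of the 30 probe sets, 9 (30%) from 8 genes reached the floor in at least 4 arrays and were tested, against 50.1% of all probe sets. HOXA4, HOXA5, HOXA7 and HOXA9 were tested in the A cluster, HOXB2, HOXB4 and HOXB7 in the B cluster and HOXD10 in the D cluster. None of the 5 C cluster genes was tested. By probe set, 16 of the 30 (53.3%) stayed below the floor in all 18 arrays, against 43.2% of all probe sets. Another 10 genes did so with every probe set: HOXA2, HOXA3 and HOXA13, HOXB1, HOXB8, HOXB9 and HOXB13, and HOXC10, HOXC12 and HOXC13. Of these, HOXC10, known in humans as a gene of lower-body fat, ranged from 2.98 to 3.26 in gonadal fat and from 3.09 to 3.27 in subcutaneous fat. HOXA13, which patterns the limb tip and the urogenital tract in mice, stayed at or below 2.49 in every array.

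By position in the cluster, the measured genes lay mostly in the middle. Of the central paralogues, numbers 4 to 8, 5 of 9 genes were tested, and only HOXB8 was below the floor in every array. Of the anterior paralogues, numbers 1 to 3, 1 of 4 genes was tested, namely HOXB2, which lay near the floor. Of the posterior paralogues, numbers 9 to 13, 2 of 8 genes were tested, HOXA9 and HOXD10, and 6 of 8 stayed below the floor throughout. By probe set, 10 of 13 posterior, 3 of 13 central and 3 of 4 anterior ones did so, beside 43.2% of all probe sets.

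**Figure D1:**
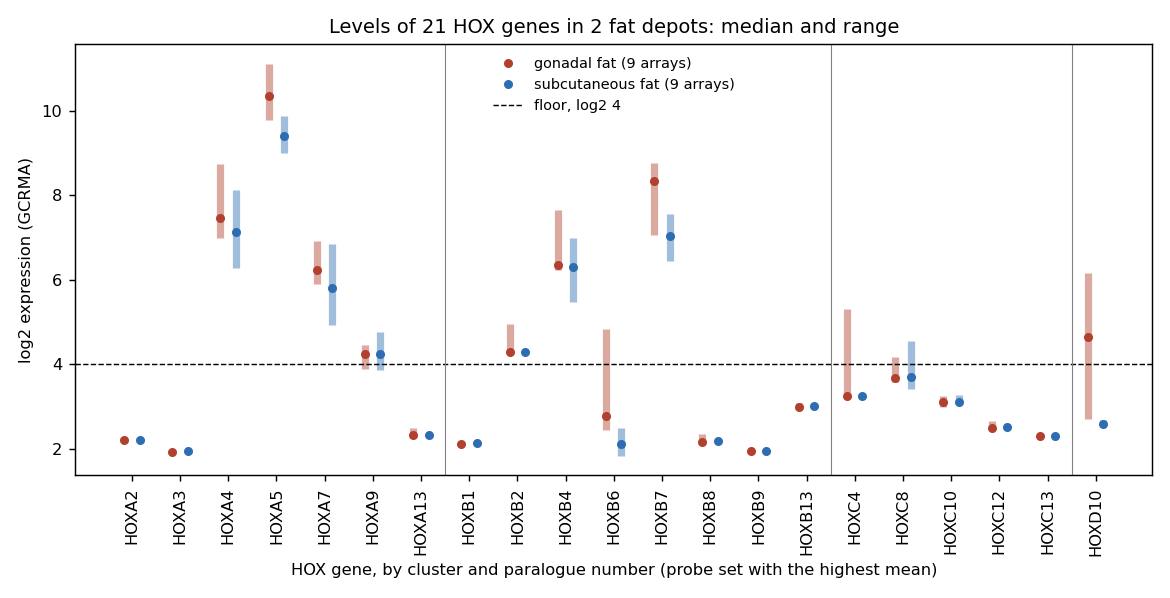
Log2 expression (y axis) of the 21 HOX genes by cluster and paralogue number (x axis), with the median (point) and range (bar) of 9 gonadal and 9 subcutaneous arrays; levels of different probe sets are not comparable with each other. Signal above the dashed floor of 4 lies mainly in HOXA4 to HOXA9, HOXB2, HOXB4 and HOXB7, of which HOXA9 and HOXB2 lie near the floor. HOXD10 rises above the floor in gonadal arrays alone.

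The first comparison asked how gonadal fat differs from subcutaneous fat, averaged over both feeding groups. HOXA5, HOXB7 and HOXD10 were higher in gonadal fat and no HOX gene was lower, by limma with Benjamini-Hochberg adjustment at 0.05. Of all 21484 tested probe sets, 16.6% were called, 7.76% higher and 8.84% lower. HOXD10 entered the test only through gonadal arrays, where it is high, so its call is a description and is not set against that share. Of the other 8 HOX probe sets 2 were called, both higher, and 7 had a positive difference, with a median of 0.47 on the log2 scale, against 0.02 over all tested probe sets. In bulk tissue, fewer cells of a type and less RNA per cell cannot be told apart.

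HOXA5, a central paralogue needed in mice for the lung and the axial skeleton, was higher in gonadal fat in 9 of 9 dogs. In ad libitum dogs 2, 5, 6, 7 and 8 it read 9.96, 10.36, 10.79, 9.78 and 10.22 in gonadal fat, against 9.30, 9.44, 9.23, 9.36 and 9.00 in subcutaneous fat. In control dogs 1, 3, 4 and 9 it read 10.15, 11.11, 10.46 and 10.53 in gonadal fat, against 9.40, 9.47, 9.86 and 9.53 in subcutaneous fat. The depots overlapped only because the subcutaneous array of control dog 4 lay above the gonadal array of ad libitum dog 7. The difference was 0.98 ± 0.15 on the log2 scale, or 1.97-fold (limma standard error, adjusted p = 0.000514), and within dogs it ran from 0.42 to 1.65.

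HOXB7, a central paralogue that helps to pattern the upper ribs in mice, was also higher in gonadal fat in 9 of 9 dogs. In ad libitum dogs 2, 5, 6, 7 and 8 it read 8.19, 8.44, 7.05, 8.00 and 8.34 in gonadal fat, against 6.44, 7.03, 6.92, 6.89 and 7.06 in subcutaneous fat. In control dogs 1, 3, 4 and 9 it read 8.15, 8.76, 8.36 and 8.75 in gonadal fat, against 7.44, 6.61, 7.35 and 7.55 in subcutaneous fat. The gonadal array of ad libitum dog 6, which carried ciliated-cell transcripts, was the only gonadal array within the subcutaneous range. The difference was 1.20 ± 0.19, or 2.30-fold (limma, adjusted p = 0.000668), with 0.13 in dog 6 and 2.15 in dog 3 as the extremes within dogs. A second HOXB7 probe set reached the floor in 1 array and was not tested; it read 3.31 to 4.25 in gonadal fat and 2.67 to 3.34 in subcutaneous fat, and was higher in gonadal fat in 9 of 9 dogs.

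HOXD10, which patterns the hindlimb and its motor neurons in mice, reached the floor in 6 of 9 gonadal arrays and in 0 of 9 subcutaneous arrays. In gonadal fat it read 4.50, 3.00, 3.33, 6.15 and 5.69 in ad libitum dogs 2, 5, 6, 7 and 8, against 2.57 to 2.64 in their subcutaneous fat. In gonadal fat of control dogs 1, 3, 4 and 9 it read 6.12, 2.70, 5.94 and 4.64, against 2.58 to 2.67 in their subcutaneous fat. The depots did not overlap, but the gonadal arrays of dogs 3, 5 and 6 lay below the floor with the subcutaneous ones. With the subcutaneous means set to the floor the difference was at least 1.62-fold (fitted log2 difference 2.09 ± 0.46, limma, adjusted p = 0.00656).

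A second HOXD10 probe set was high in gonadal fat of ad libitum dog 7 (5.26) and control dog 1 (5.18), the dogs with the highest values of the first. It lay at 2.19 to 3.29 in the other gonadal arrays and at 2.26 to 2.34 in subcutaneous fat. The name of the first HOXD10 probe set rests on the platform annotation, whose gene number for it is not in the RefSeq table. With the signal difference between the 3′ and 5′ actin probes, a measure of RNA degradation, as a covariate, the fitted HOXD10 difference was 1.55 and no longer passed (limma, adjusted p = 0.0506). That actin difference ranged from 1.91 to 4.84 in gonadal arrays and from 2.61 to 5.72 in subcutaneous arrays.

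**Figure D2:**
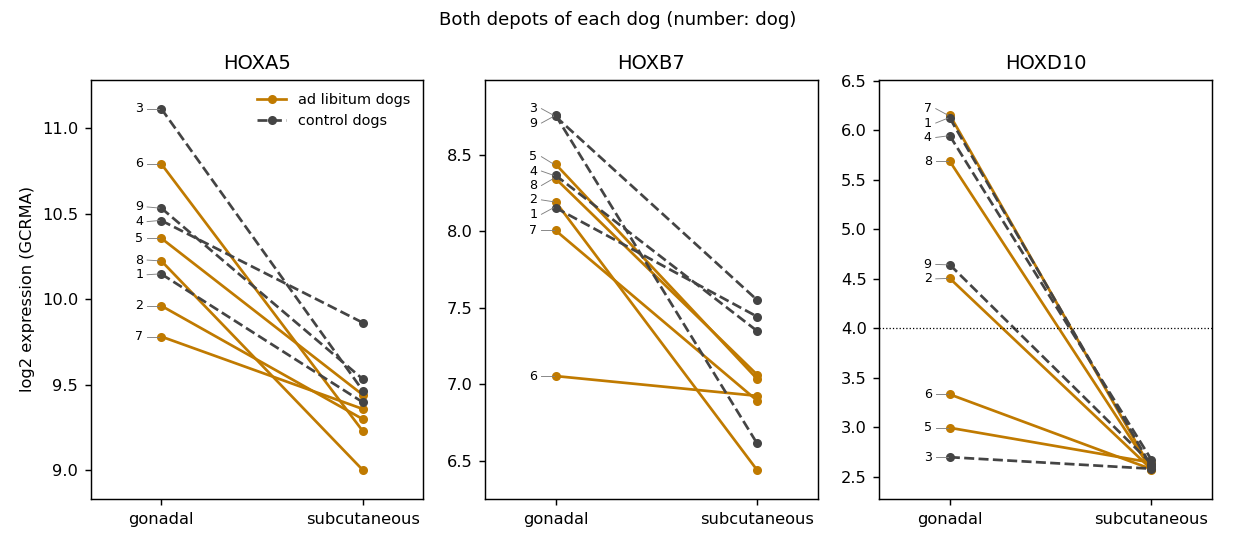
Log2 expression (y axis) of HOXA5, HOXB7 and HOXD10 in gonadal and subcutaneous fat (x axis), with a line for each of 9 dogs and the dog's number at the left; the dotted line marks the floor of 4. For HOXA5 and HOXB7 every dog is higher in gonadal fat, by 0.13 for HOXB7 in dog 6, and for HOXD10, where dogs 3, 5 and 6 are below the floor in both depots, the gonadal values spread from 2.70 to 6.15 while the subcutaneous values stay together.

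The other 5 tested genes did not pass without a covariate. HOXA4, which shapes the neck vertebrae in mice, ranged from 6.98 to 8.75 in gonadal fat (median 7.47) and from 6.28 to 8.13 in subcutaneous fat (median 7.13), and was higher in gonadal fat in 6 of 9 dogs. Its difference was 0.57 ± 0.31 (limma, adjusted p = 0.215), and its second probe set gave 0.37 ± 0.24 (limma, adjusted p = 0.310). With the actin covariate the second probe set gave 0.76 ± 0.22 and passed (limma, adjusted p = 0.0354), and the first gave 0.87 ± 0.34 and did not (adjusted p = 0.104). The depots overlapped over most of their range. HOXA7 and HOXA9 act in blood progenitors. HOXA7 ranged from 5.91 to 6.91 in gonadal fat and from 4.93 to 6.84 in subcutaneous fat, a difference of 0.53 ± 0.24 (limma, adjusted p = 0.139). HOXA9 lay near the floor, at 3.90 to 4.45 in gonadal fat and 3.87 to 4.76 in subcutaneous fat. Its difference was -0.03 ± 0.11 (limma, adjusted p = 0.890). The other HOXA9 probe sets stayed at 1.79 to 2.55 in all arrays.

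In the B cluster, HOXB2, a hindbrain gene of the embryo, hardly varied. It read 4.25 to 4.33 in 17 arrays and 4.95 in gonadal fat of ad libitum dog 6, with a depot difference of 0.06 ± 0.09 (limma, adjusted p = 0.714). HOXB4, known for expanding blood stem cells, ranged from 6.24 to 7.64 in gonadal fat and from 5.47 to 7.00 in subcutaneous fat. The difference of HOXB4 was 0.42 ± 0.19 (limma, adjusted p = 0.136).

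HOXB6 and the C cluster gave signal in single arrays. HOXB6 is active in the lateral plate mesoderm of the mouse embryo. It read 2.44 to 4.84 in gonadal fat and 1.84 to 2.50 in subcutaneous fat. It was higher in gonadal fat in 9 of 9 dogs, but only gonadal fat of control dog 3 reached the floor. The other HOXB6 probe set stayed at 2.23 to 2.29 in all arrays and was higher in gonadal fat in 2 of 9 dogs. HOXC4 read 5.32 in gonadal fat of ad libitum dog 6, 4.64 in that of control dog 3 and 3.63 in that of ad libitum dog 5, and 3.17 to 3.29 in the other 15 arrays. HOXC8, which patterns the thoracic skeleton in mice, reached the floor in gonadal fat of control dog 3 (4.18) and in subcutaneous fat of ad libitum dog 7 (4.16) and control dog 9 (4.55). That probe set too is named by the platform annotation alone, and the other HOXC8 probe set stayed at 2.42 to 2.70 in all arrays.

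Gonadal arrays differed among themselves in which HOX genes were high. Dogs 3, 5 and 6, the 3 gonadal arrays without measured HOXD10, were the 3 with the highest HOXA4, at 8.67, 8.26 and 8.75, against 6.98 to 7.95 in the other 6. The same 3 arrays were the 3 highest for HOXC4, though dog 5, at 3.63, lay below the floor. Dogs 3 and 6 had the highest gonadal values of HOXA5 and HOXB4. HOXB7 and HOXA7 did not follow this split. For both, dog 3 had the highest gonadal value (8.76 and 6.91) and dog 6 the lowest (7.05 and 5.91). This split was seen in the values themselves and no test was made of it. The smooth muscle markers, 6 of 6 measured, had array medians of 14.5 and 12.7 in dogs 3 and 6, the highest of the gonadal arrays. In dog 5 the median was 9.82. The adipocyte medians of dogs 3, 5 and 6, at 11.5, 12.6 and 11.3, were the 3 lowest, against 12.7 to 13.2 in the other gonadal arrays. Their mesothelial medians were 6.10, 8.28 and 8.71, against 6.51 to 8.38. The part of these cell types in the split was not tested.

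Markers of other cell types differed between depots in both directions. The 5 measured of 8 mesothelial markers had array medians of 6.10 to 8.71 in gonadal fat and of 2.77 to 3.58 in 8 subcutaneous arrays, with 7.04 in that of control dog 4, and their summed log2 level was 29.3 to 37.7 in gonadal fat and 15.02 to 29.65 in subcutaneous fat. Of the 5, CALB2 ran the other way, at 2.33 to 5.35 in gonadal fat and 2.42 to 7.57 in subcutaneous fat. The smooth muscle medians were 8.99 to 14.5 in gonadal fat and 7.40 to 11.3 in subcutaneous fat, and the summed levels were 57.0 to 85.3 in gonadal fat and 47.0 to 67.3 in subcutaneous fat. The 8 fibroblast and progenitor markers had medians of 10.2 to 12.1 in gonadal fat and 10.8 to 13.2 in subcutaneous fat, and among them PI16 did not overlap, at 4.93 to 8.00 in gonadal fat and 8.36 to 11.86 in subcutaneous fat. The 7 macrophage markers had medians of 5.98 to 7.32 in gonadal fat and 6.59 to 9.46 in subcutaneous fat. The part of these cells in the HOX differences was not tested. In subcutaneous fat of dog 4, mesothelial, skeletal muscle and ciliated-cell markers were all high. That array gave the top subcutaneous values of HOXA5 (9.86), HOXB4 (7.00) and HOXD10 (2.67, below the floor). A link to any 1 of these cell types was not tested. With those 4 arrays of mixed tissue and the gonadal array of dog 3 left out, the differences were 0.89 for HOXA5 (limma, adjusted p = 0.00234), 1.16 for HOXB7 (adjusted p = 0.000985) and 2.65 for HOXD10 (adjusted p = 0.00507). For HOXD10 this is the fitted difference, with subcutaneous values below the floor.

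Within each feeding group the same depot comparison was made on separate dogs. HOXD10 was again not set against the share of all probe sets. In ad libitum dogs 2 of the other 8 HOX probe sets, HOXA5 and HOXB7, were higher in gonadal fat. Of all tested probe sets 7.19% were called, 2.83% higher and 4.36% lower. HOXA5 differed by 0.96 ± 0.20 (limma, adjusted p = 0.00875) and HOXB7 by 1.14 ± 0.25 (limma, adjusted p = 0.0125). HOXB4 was higher in gonadal fat in 5 of 5 ad libitum dogs, by 0.73 ± 0.25 (limma, adjusted p = 0.0838). With its subcutaneous mean set to the floor, HOXD10 differed by at least 1.45-fold (fitted log2 difference 1.94 ± 0.61, limma, adjusted p = 0.0645). With the dog as a random block HOXB4 and HOXD10 passed as well, with limma adjusted p-values of 0.0482 and 0.0360, and with the dog as a fixed block neither did (0.0863 and 0.0651). HOXD10 entered the test only through gonadal arrays, so its results within the feeding groups are a description. The ad libitum calls depended on single dogs: without dog 8 neither gene passed (HOXA5 adjusted p = 0.0567, HOXB7 adjusted p = 0.0595), and without dog 2 or dog 7 HOXB7 did not (adjusted p = 0.0564 and 0.0567, all limma).

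In control dogs the same 2 of the 8 HOX probe sets other than HOXD10 were higher in gonadal fat. Of all tested probe sets 2.92% were called, 1.1% higher and 1.82% lower. HOXA5 differed by 1.00 ± 0.22 (limma, adjusted p = 0.0237) and HOXB7 by 1.27 ± 0.28 (limma, adjusted p = 0.0236). With its subcutaneous mean set to the floor, HOXD10 differed by at least 1.80-fold. Its fitted log2 difference was 2.23 ± 0.68 (limma, adjusted p = 0.0855, 0.0464 with the dog as a random block and 0.0841 as a fixed block). HOXB4 was higher in gonadal fat in 1 of 4 control dogs, with 0.10 ± 0.28 (limma, adjusted p = 0.876). Without control dog 1, 3 or 9 neither HOXA5 nor HOXB7 passed, with limma adjusted p-values of 0.0553 to 0.138, and without dog 4 HOXB7 did not (adjusted p = 0.0713). HOXA5 also missed the threshold when the control arrays were fitted alone (limma, adjusted p = 0.0653), HOXB7 with the actin covariate or with no filter (0.0843 and 0.0552), and both without the 4 arrays with other tissue and the gonadal array of dog 3 (0.0629 and 0.0872).

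**Figure D3:**
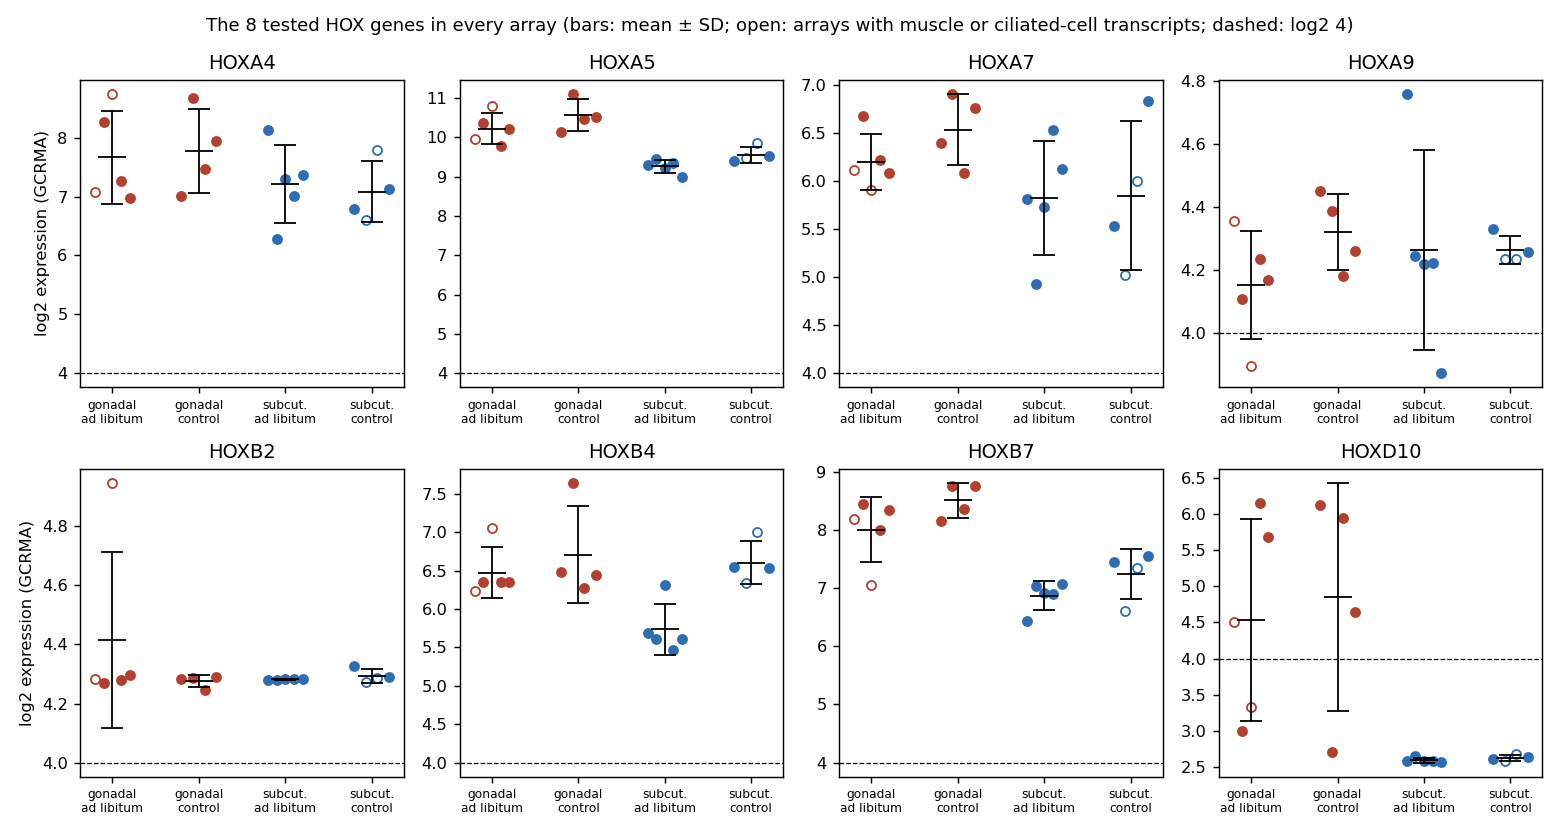
Log2 expression (y axis, with its own scale in each panel) of the 8 tested HOX genes in every array by depot and feeding group (x axis), with mean ± SD; open points are the 4 arrays with transcripts of muscle or ciliated cells and the dashed line is the floor of 4. HOXA5 and HOXB7 are higher in gonadal fat in both feeding groups, and the subcutaneous HOXB4 values of ad libitum dogs lie below those of control dogs.

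The second comparison asked how ad libitum feeding changed each depot. No HOX probe set passed in gonadal fat, where 0% of all probe sets were called by limma and 2.47% had an unadjusted p under 0.05, and 0 of 9 HOX probe sets were among these. Their median difference was -0.24, against 0.01 over all tested probe sets, and 2 of 9 were positive. HOXB7 averaged 8.01 ± 0.56 in ad libitum dogs and 8.51 ± 0.30 in control dogs (SD, n = 5 and 4), a difference of -0.50 ± 0.26 that did not pass (limma, adjusted p = 0.99994). HOXA5 gave -0.34 ± 0.21, HOXA9 -0.17 ± 0.15 and HOXB2 0.14 ± 0.13, all with the same adjusted p. The first HOXA4 probe set gave -0.11 ± 0.43 and the second 0.52 ± 0.34, opposite in sign and also with that adjusted p. HOXD10 reached the floor in 3 of 5 ad libitum and 3 of 4 control dogs.

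In subcutaneous fat no HOX probe set passed either, by limma, against 2.36% of all probe sets called, 1.9% higher and 0.451% lower, and 1 of 9, HOXB4, had an unadjusted p under 0.05. HOXB4 read 5.69, 5.61, 6.31, 5.47 and 5.60 in ad libitum dogs 2, 5, 6, 7 and 8, against 6.55, 6.33, 7.00 and 6.54 in control dogs 1, 3, 4 and 9. The groups did not overlap, though dog 6 came close to dog 3. The difference was -0.87 ± 0.26 (limma, adjusted p = 0.0825), and without dog 6 it was -1.01 and passed (adjusted p = 0.0427). That was the only 1 of 19 alternatives to pass. Without the 4 arrays with other tissue the HOXB4 difference was -0.81 (limma, adjusted p = 0.283). Over all alternatives it ran from -1.01 to -0.60, with limma adjusted p-values up to 0.402. HOXA5 gave -0.30 ± 0.21 (limma, adjusted p = 0.390), HOXB7 -0.37 ± 0.26 (limma, adjusted p = 0.405) and HOXA4 0.13 ± 0.43 (limma, adjusted p = 0.878). The second HOXA4 probe set gave 0.50 ± 0.34 (limma, adjusted p = 0.370). The median over the 9 HOX probe sets was -0.02, against 0.01 over all.

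Whether feeding acted differently in the depots was tested as an interaction, and 0 of 9 HOX probe sets passed or had an unadjusted p under 0.05, against 0% of all probe sets called by limma and 6.26% with an unadjusted p under 0.05. For HOXB4 the depot difference of ad libitum dogs minus that of control dogs was 0.63 ± 0.37, which did not pass (limma, adjusted p = 0.748). The interaction was 0.15 ± 0.18 for HOXB2, -0.17 ± 0.21 for HOXA9 and -0.31 ± 0.48 for HOXA7. The first HOXA4 probe set gave -0.25 ± 0.61 and the second 0.02 ± 0.48.

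**Figure D4:**
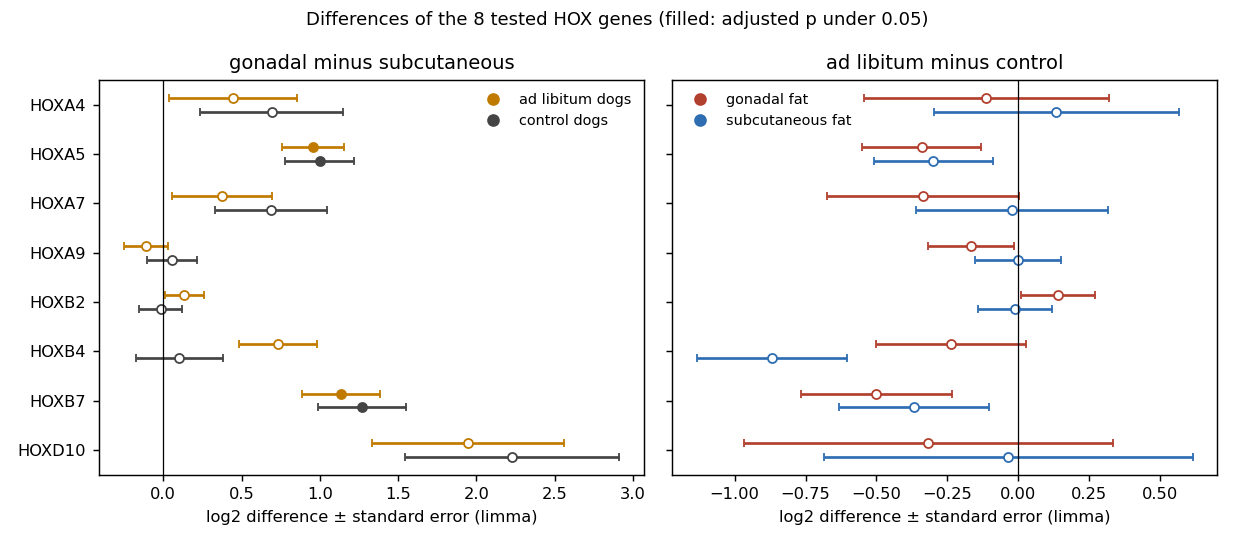
Log2 differences ± limma standard error (x axis) of the 8 tested HOX genes (rows), gonadal minus subcutaneous in each feeding group (left) and ad libitum minus control in each depot (right); filled points passed at an adjusted p of 0.05. HOXA5 and HOXB7 are filled in both groups at the left, and no point is filled at the right, where subcutaneous HOXB4 is lowest at -0.87. HOXD10 is drawn as fitted, with subcutaneous means below the floor.

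Among the proteins that work with HOX factors, 3 of 9 TALE genes were tested and 1 passed, beside 7.76% of all tested probe sets called higher. MEIS1, a DNA-binding partner of HOX proteins, was higher in gonadal fat. It averaged 8.16 ± 1.25 in gonadal fat and 6.14 ± 1.10 in subcutaneous fat (SD, n = 9 each), a difference of 1.98 ± 0.52 (limma, adjusted p = 0.0167) that was positive in 8 of 9 dogs. MEIS2 gave 0.60 ± 0.25 (limma, adjusted p = 0.107) and PBX3 -0.36 ± 0.21 (limma, adjusted p = 0.254). None of 14 tested Polycomb genes passed in limma, against 16.6% of all tested probe sets called, and their median difference was 0.07. Of 9 tested trithorax genes and H3K27 demethylases 1 passed, DPY30, a core subunit of histone H3K4 methyltransferases, at 0.60 ± 0.15 (limma, adjusted p = 0.0161).

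Of the retinoid and CDX regulators, 5 of 13 were tested and 3 were higher in gonadal fat. For RARB and ALDH1A2 a group mean lay below the floor. The count is therefore a description and is not set against the 7.76% of all tested probe sets called higher. The retinoic acid receptor RARB was at least 2.51-fold higher (limma, adjusted p = 0.0151), the retinaldehyde dehydrogenase ALDH1A1 differed by 1.76 ± 0.33 (limma, adjusted p = 0.00254), and ALDH1A2, which makes retinoic acid in the embryo, was at least 5.34-fold higher (limma, adjusted p = 0.000637). ALDH1A2 was higher in gonadal fat in 9 of 9 dogs.

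Of 35 listed neighbours of the clusters, 34 lie on a HOX chromosome in the RefSeq table, 0 to 9 protein-coding genes from the nearest HOX gene. Of the 25 tested, 1 was higher in gonadal fat and 2 were lower, a share near the 16.6% of all probe sets, with a median difference of 0.05. NFE2L1, a stress-response transcription factor gene 3 genes from the B cluster, was higher by 0.52 ± 0.14 (limma, adjusted p = 0.0190). SNX10, a sorting nexin gene 1 gene from the A cluster, was lower in gonadal fat in 9 of 9 dogs, with a difference of -2.48 ± 0.43 (limma, adjusted p = 0.00135). COPZ2, a coatomer subunit gene 4 genes from the B cluster, was lower, with -0.63 ± 0.18 (limma, adjusted p = 0.0270). SKAP2, which borders the A cluster, gave -0.22 ± 0.24 (limma, adjusted p = 0.565), and SKAP1, which borders the B cluster, -0.25 ± 0.26 (limma, adjusted p = 0.556). No member of these 5 lists passed for feeding in either depot or for the interaction.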

How the data were processed

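The labels give 18 arrays of total RNA from 9 dogs, 1 gonadal and 1 subcutaneous per dog. The authors deposited expression values read here as log2, made by GCRMA per the submitters' processing notes; neither the version nor the options nor the base of the logarithm is given in the sources used here. Values ran from 0.68 to 16.51 and array medians from 3.65 to 3.87. Probe sets at log2 4 or above in at least 4 arrays were tested, 21484 in all. The 4 group means were fitted with limma 3.58.1 (R 4.3.3; statmod 1.5.0 for the random block) with no block for the dog (14 residual degrees of freedom, 2.54 added by moderation). Tests were two-sided, with Benjamini-Hochberg adjustment over all tested probe sets at a threshold of 0.05, and errors after ± are standard errors unless SD is given. The depot difference over both feeding groups weights them equally. The fit was tested on simulated data.

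Dog numbers come from the labels and pair the depots; deviations from group means correlated within dogs at -0.05 to 0.53. For a gene with several probe sets the brightest on average is given first, and where a group mean lay below 4 it was set to 4 and the fold given as a bound. Named were HOX genes past the threshold, the HOX gene with the highest mean in each cluster, the 4 with the smallest p for feeding and interaction, and up to 4 passing members of each pathway list. HOX genes outside that rule were named after their values were seen. A probe set with 2 symbols, 1 of them HOXC6, was left out, and gene numbers of 28 of the 30 members are in the RefSeq table. Members and lists were chosen with earlier results of these data known. Markers of ciliated cells, and the arrays left out for other tissue, were chosen after seeing the data. Alternatives changed the filter, the block for the dog, the arrays fitted, an actin covariate and the probe set rule, and left out each dog in turn.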

Additional observations from a re-analysis of the deposited data

Results flagged for a closer look

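In 7 of 36 groups of HOX values examined, the highest or lowest array lay far from the others of its group; chance alone flags about 1 in 20 groups. HOXB4 had 3 of them: 7.06 in gonadal fat of ad libitum dog 6, against 6.24 to 6.36 in the other ad libitum dogs, 7.64 in gonadal fat of control dog 3, against 6.27 to 6.48 in the other controls, and 6.31 in subcutaneous fat of ad libitum dog 6, against 5.47 to 5.69. HOXB2 read 4.95 in gonadal fat of ad libitum dog 6, against 4.27 to 4.30 in its group, and 4.25 in gonadal fat of control dog 4, against 4.28 to 4.29. HOXB7 read 6.44 in subcutaneous fat of ad libitum dog 2, against 6.89 to 7.06. HOXD10 read 2.64 in subcutaneous fat of ad libitum dog 5, against 2.57 to 2.58, all below the floor. Dog 6 gave 3 of the 7 values and dog 3 gave 1.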

How the results depend on the processing

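Over both feeding groups, 3 HOX probe sets were higher in gonadal fat under every setting but the stricter filter, which gave 2, and no filter, which gave 5 by adding HOXB6 (0.91 ± 0.26, limma adjusted p = 0.0479) and the second HOXB7 probe set. The actin covariate also gave 3, without HOXD10 and with the second HOXA4 probe set. HOXA5 (0.87 to 1.22) and HOXB7 (1.06 to 1.33) passed under all 19 alternatives, HOXD10 (1.55 to 2.65) under 17 of 18. The HOXD10 values are fitted differences, with subcutaneous values below the floor. In ad libitum dogs the count of 2 became 4 with the dog as a random replicate block, with the actin covariate, and without the arrays with other tissue and the gonadal array of dog 3, became 3 with no filter, and ran from 0 to 4 when each dog was left out. In control dogs the count of 2 became 1 with no filter, with the actin covariate and with the control arrays alone, became 0 without those arrays and 3 with the random block, and ran from 0 to 2 with each dog left out. With the dog as a fixed replicate block the counts were 3 over both groups, 2 in each feeding group and 0 for the interaction; feeding is constant within a dog and could not be fitted with it. For feeding in subcutaneous fat the count ran from 0 to 1 with each dog left out. Signs turned, none past the threshold, for HOXA4 feeding in subcutaneous fat (-0.095 without dog 2, -0.023 without dog 3, and -0.095 to 0.37 over all dogs left out), for the HOXB2 interaction (-0.0048 with the actin covariate) and for the HOXA7 interaction (0.15 without the 4 arrays, 0.28 also without the gonadal array of dog 3, 0.088 without dog 3, and -0.66 to 0.088 over all dogs left out). The cause of these changes was not tested. Signals near the floor limit HOXA9, HOXB2, HOXB6, the C cluster and HOXD10.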
